A study of Mus musculus with 60 samples.

Results

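Hepatocytes, the parenchymal cells of the liver, were compared at 3 h and at 1 h of culture. The 20 libraries are 10 pairs, a 1 h and a 3 h library from each of 10 animals, and they are part of a series of 60 hepatocyte RNA-Seq libraries. All animals were 8-week-old male C57BL/6J offspring that had received no drug themselves, each from a separate litter. Fathers of 5 animals (NIC) had drunk nicotine at 200 µg/ml from 3 to 8 weeks of age, and fathers of the other 5 (TA) had drunk tartaric acid, the control solution, before a withdrawal period and mating. Isolated cells were left for 3 h to adhere to gelatin-coated wells, nonadherent cells were removed, and fresh medium (DMEM with 20% serum, insulin-transferrin-selenium and dexamethasone) started the clock, so that 0, 1 and 3 h count from that change. By the paper's methods, the livers had already been dissected and the cells washed in this medium, so dexamethasone was present before 0 h. Every culture at 1 and 3 h held dexamethasone, a synthetic glucocorticoid, by the labels with DMSO, so that no value here separates the hormone from the time in culture. The question was what changed in the cells over these hours, with both father groups pooled and each 3 h library set against the 1 h library of its own animal.

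Hepatocytes in the liver spend most of their transcription on secreted plasma proteins, bile acid synthesis, and the handling of amino acids, lipids and drugs. Isolation and plating break their contacts with neighbours and matrix, and the cells are known to answer with immediate early transcription factors, remodelling of actin and keratin, oxidative and amino acid stress genes and, over longer culture, a loss of liver-specific transcripts. Glucocorticoids induce metallothioneins and several metabolic genes through the glucocorticoid receptor and restrain inflammatory cytokines.

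Levels are given in ppm, which by the behaviour of the values are TPM, and differences as log2 changes of ppm + 1 (3 h minus 1 h) from limma with the animal as a block. A gene is called where its Benjamini-Hochberg adjusted p over all genes tested was under 0.05. Read totals are unknown, but depth relative to the deepest library of its title date was 0.423 to 0.914 at 1 h and 0.497 to 1 at 3 h, and the 3 h library was deeper in each of the 10 animals, by 1.02 to 1.32 times. The number of genes above 0 was 11699 to 12674 at 1 h and 11730 to 12613 at 3 h. Of 10 hepatocyte markers, Alb, Ttr, Apoa1, Cps1, Cyp2e1, Tat, Hnf4a, Serpina1c and Fgb were above 0 in all 20 libraries and Ass1 was listed at 0 in 8 of them. Alb (albumin) itself was 75505 to 128312 ppm at 1 h and 81227 to 128856 ppm at 3 h, with a log2 change of 0.06 (standard error 0.03) that was not called. TA animals 1 and 4 and NIC animal 13 stood apart from the other 7 in stress and cytoskeletal transcripts at 1 h: Krt18 was 1114, 1985 and 2724 ppm in them and 301 to 649 ppm in the other 7, and Srxn1 was 206, 386 and 491 against 25.4 to 53.8 ppm. What sets these animals apart is not given in the labels. The called genes that held without them are named with the counts below.

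Of 10082 genes tested, 148 were higher at 3 h (1.47% of all genes tested) and 121 were lower (1.20%), and 1723 had an unadjusted p under 0.05. The genes called higher moved further than those called lower. Their log2 changes ran from 0.28 to 1.61 with a median of 0.69 and 21 over 1, whereas the genes called lower ran from −0.14 to −1.27 with a median of −0.35 and 3 under −1. The median change of all genes tested was −0.02. Genes called lower were the more abundant, with a median of 84.8 ppm at 1 h against 18.8 ppm for those called higher and 8.81 ppm for all genes tested. Among called genes, 71 of the 148 higher and 74 of the 121 lower had the same sign in all 10 animals, yet animals differed so much in level that only 2 genes, Imp3 among them, had no overlap between the 1 h and 3 h libraries.

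The number of calls depended on how the animal entered the fit and on which animals were kept. With the animal as a random rather than a fixed block, 6 genes were higher and 4 lower, and with no replicate block 0 were higher and 1 lower (limma, with 328 positive and 396 negative at an unadjusted p under 0.05). Without TA animals 1 and 4 and NIC animal 13, 26 were higher and 15 lower. Leaving out TA animal 1, 2 or 3 or NIC animal 12 alone lowered the higher genes to 77, 93, 82 and 89, and leaving out TA animal 1, 3 or 4 or NIC animal 12, 13 or 14 lowered the lower genes to 65, 62, 78, 74, 73 and 75. Among the 103 called genes named here, 35 were still called without the 3 animals and none of the 103 changed sign. Those still called included Mt1, Mt2, Sprr1a, Tnfrsf12a, Slpi, Lce1d, Krt8, Krt18, Nrip1, Gadd45a, Neat1, Lcn2, Saa3, Il1rn, Mx2, Rsad2, Prrg4, Cyp2b10, Sox9, Klf6, Hspa1b, Ddit3, Sqstm1, Klf15, Cyp7a1, Cyp8b1, Hsd17b4, Ces1f, Ppp1r3b, Slc38a4, Nrep, Clec2d, Ccl4 and Apob. Apart from Imp3, which was not among the 103, any other called gene described here was not called without the 3 animals. With the random block, the gene lists of bile acid synthesis (2 lower) and nuclear long noncoding RNAs (1 higher) had called members. The nuclear receptor list had 1 higher, the corepressor Nrip1, which is not itself a receptor. No other list had any. Rescaling by median of ratios gave 188 higher and 94 lower, a share of higher calls of 66.7%.

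**Figure D1:**
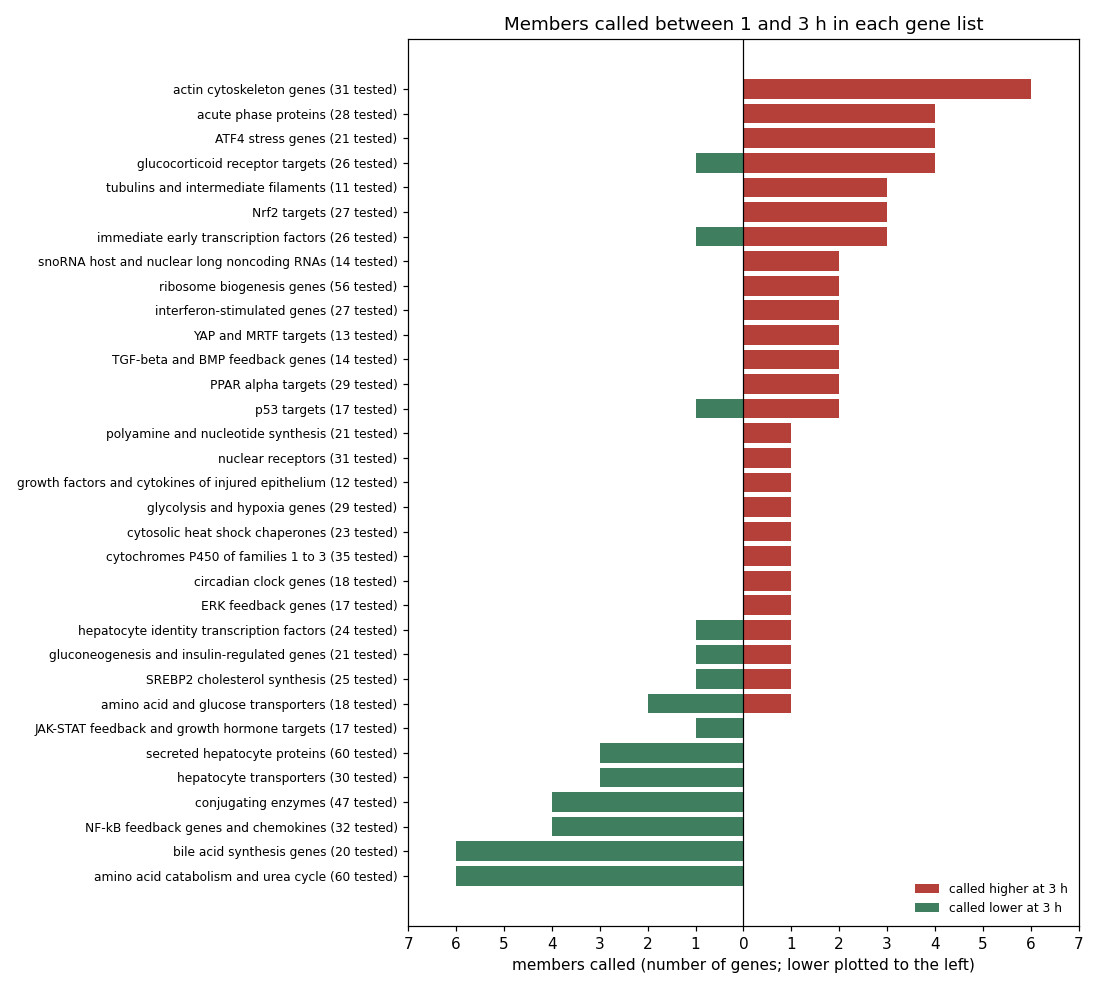
Number of genes called between 1 and 3 h (x axis, genes, higher to the right and lower to the left) in each of the 33 gene lists with a called member (y axis, with the number of members tested). Lists of the cytoskeleton and of stress lie on the right, with 6 of 31 actin cytoskeleton genes higher, and lists of hepatocyte metabolism on the left, with 6 of 20 bile acid synthesis genes lower. Of all genes tested, 1.47% were higher and 1.20% lower.

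The smallest p among genes called higher was that of a metallothionein. Metallothioneins are small cysteine-rich proteins that bind zinc and copper, and their genes are classical targets of glucocorticoids and metals. Mt1 (chr8:94179082-94180327, GRCm38) was 1149 to 4376 ppm at 1 h, with a median of 1949 ppm, and 1948 to 5708 ppm at 3 h, with a median of 3344 ppm. The highest libraries at both times were those of TA animals 1 and 4 and NIC animal 13. The times also overlapped in the other 7, with up to 2315 ppm at 1 h and from 1948 ppm at 3 h. Within animals Mt1 was higher at 3 h in 10 of 10. Its log2 change was 0.70 (standard error 0.07, adjusted p = 3.0e-04). Mt2, its neighbour, rose from a median of 1821 ppm (896 to 4198) to 2821 ppm (1995 to 6285), a log2 change of 0.82 (standard error 0.10, adjusted p = 7.1e-04), again in 10 of 10 animals. These related genes may share some reads, so they cannot be taken as independent of each other. Without the 3 animals named above, the changes were 0.76 and 0.89 and both were still called.

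Mt1 and Mt2 belong to a list of 26 glucocorticoid receptor targets. Of these, 4 were higher (against 1.47% of all genes tested), 1 lower (against 1.20%) and 21 not called, with a median change of 0.05. The others called higher were Igfbp1, a liver protein that binds insulin-like growth factors (log2 change 0.35, standard error 0.07, adjusted p = 0.0168), and Pdk4, a kinase that shuts off pyruvate oxidation (0.77, standard error 0.16, adjusted p = 0.0182). Tdo2, the enzyme that opens the tryptophan ring and is induced by glucocorticoids in liver, fell instead, from a median of 2400.3 ppm (1612 to 3274) to 1971 ppm (1388 to 2928), a log2 change of −0.20 (standard error 0.04, adjusted p = 0.0163). It was lower in 9 of 10 animals, the exception being NIC animal 11, and with median-of-ratios scaling no member of the list was called lower. Tat, tyrosine aminotransferase and the textbook hormone-induced gene of hepatocytes, was 2167 ppm at 1 h and 2067 ppm at 3 h by the medians, a log2 change of −0.17 (standard error 0.05, adjusted p = 0.115) that was not called. Per1, a clock gene with a glucocorticoid response, had a change of 0.41 (standard error 0.18, adjusted p = 0.25).

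Among genes that rose in all 10 animals, the largest rises came from genes better known from injured or keratinizing epithelium than from liver. Sprr1a, a cornified envelope precursor of squamous epithelia, was 10.2 to 125 ppm at 1 h (median 25.5) and 34.2 to 284 ppm at 3 h (median 67.5). It rose in 10 of 10 animals by a log2 change of 1.35 (standard error 0.15, adjusted p = 3.6e-04). Tnfrsf12a, the receptor for the cytokine TWEAK, was 8.40 to 121 ppm at 1 h (median 19.6) and 29.3 to 194 ppm at 3 h (median 71.1). The 3 animals with 77.9, 121 and 103 ppm at 1 h were again TA 1, TA 4 and NIC 13, the other 7 having 8.40 to 22.8 ppm, and all 10 rose, by 1.38 on average (standard error 0.15, adjusted p = 3.8e-04). Slpi, a secreted inhibitor of leukocyte proteases, spanned 3.09 to 112 ppm at 1 h and 15.1 to 201 ppm at 3 h, and rose in every animal by 1.39 (standard error 0.16, adjusted p = 4.3e-04). Lce1d, another cornified envelope gene, was listed at 0 in the lowest 1 h library and had medians of 6.57 and 16.0 ppm (log2 change 1.26, standard error 0.21, adjusted p = 0.00595). All 4 genes were still called without the 3 animals, with changes of 1.41 (Sprr1a), 1.61 (Tnfrsf12a), 1.51 (Slpi) and 1.43 (Lce1d).

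**Figure D2:**
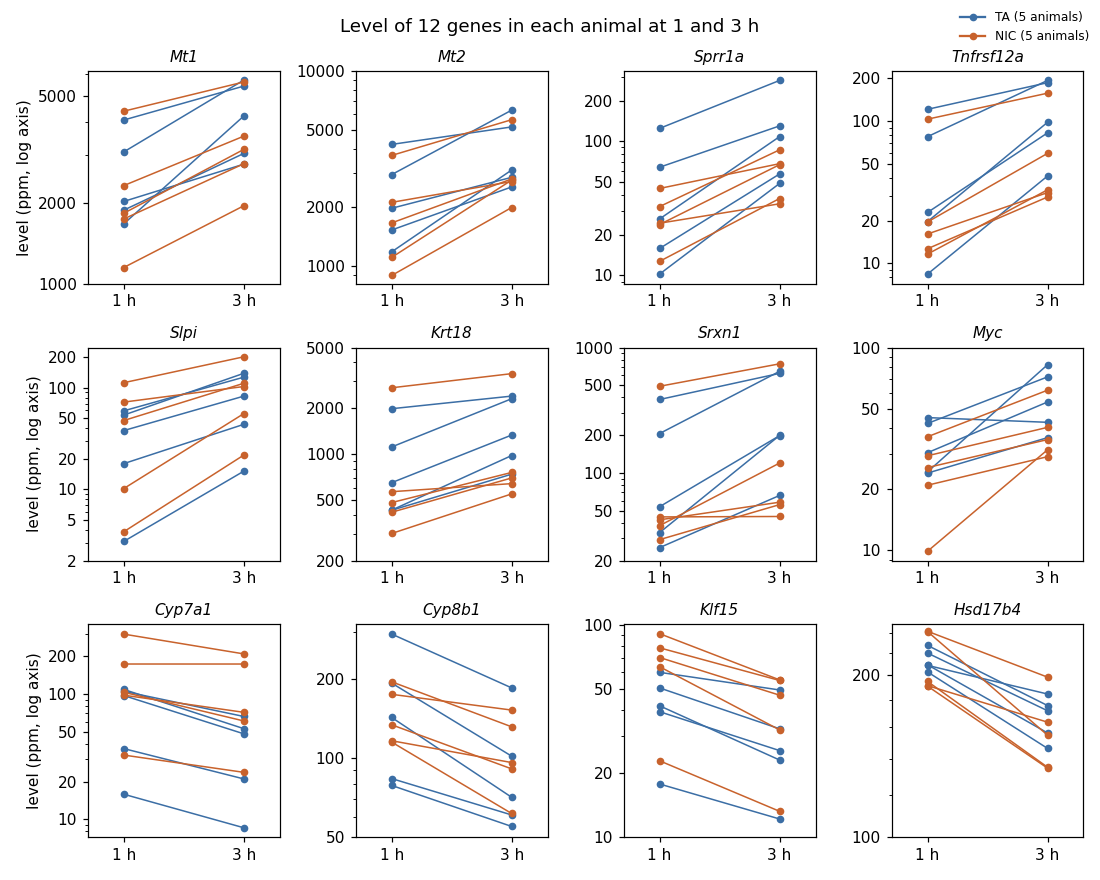
Level of 12 genes (y axis, ppm, log axis) in the 1 h and the 3 h library of each animal (x axis, time; each line joins the 2 libraries of 1 animal, blue for TA and orange for NIC, 5 animals each). Mt1, Mt2, Sprr1a, Tnfrsf12a, Slpi and Krt18 rose in 10 of 10 animals over a wide range of starting levels, and Hsd17b4, with 191 to 241 ppm at 1 h and 134 to 198 ppm at 3 h, fell in 10 of 10 with little spread and a narrow overlap of the times.

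Areg, which encodes the EGF receptor ligand amphiregulin, was called higher. It was the only call (against 1.47% of all genes tested) among 12 tested growth factors and cytokines of injured epithelium. It was low at 1 h, with a median of 2.88 ppm and 1 library listed at 0, and reached a median of 10.4 ppm (2.19 to 34.4) at 3 h. Its log2 change of 1.52 (standard error 0.28, adjusted p = 0.00989) was positive in 9 of 10 animals, and without the 3 animals it was 1.66 with an adjusted p of 0.0644. The promoters of Sprr1a and Areg are shown because both hold an intact copy of a planned motif, the AP-1 site TGANTCA (the element bound by Fos and Jun proteins) in Sprr1a and the cyclic AMP response element TGACGTCA in Areg. Each run is the strand of the gene, 5′ to 3′, ending at the base before the RefSeq transcript start (GRCm38.p6), with the motif in capitals.
Sprr1a, chr3:92485882-92486081, minus strand: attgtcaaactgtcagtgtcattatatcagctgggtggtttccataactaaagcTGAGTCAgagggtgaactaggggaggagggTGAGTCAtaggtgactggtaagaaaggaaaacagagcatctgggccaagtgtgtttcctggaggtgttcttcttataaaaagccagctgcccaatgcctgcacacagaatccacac
Areg, chr5:91139399-91139598, plus strand: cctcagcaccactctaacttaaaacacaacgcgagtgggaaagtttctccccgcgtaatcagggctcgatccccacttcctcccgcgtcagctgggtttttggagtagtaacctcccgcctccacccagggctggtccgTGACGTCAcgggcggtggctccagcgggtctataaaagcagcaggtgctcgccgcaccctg

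Of 31 tested actin cytoskeleton genes, 6 were higher (against 1.47% of all genes tested), none was lower (limma; 0 negative and 11 positive at an unadjusted p under 0.05), and 25 were not called. With the animal as a random block none of the 31 was called. The list's median change was 0.22. Actg1, cytoplasmic gamma-actin, went from a median of 364 ppm (268 to 1102) at 1 h to 643 ppm (323 to 2144) at 3 h, higher in 9 of 10 animals, with a log2 change of 0.70 (standard error 0.11, adjusted p = 0.00402). Tes, a LIM protein of focal adhesions, had medians of 3.48 and 11.2 ppm and changed by 1.14 (standard error 0.18, adjusted p = 0.00458). Vcl (vinculin), which links actin to adhesion sites, changed by 0.57 (standard error 0.11, adjusted p = 0.0173) and Myh9, the heavy chain of nonmuscle myosin IIA, by 0.51 (standard error 0.11, adjusted p = 0.0199). Actb and Zyx, beta-actin and the adhesion protein zyxin, were the others called, at 0.39 (standard error 0.08, adjusted p = 0.0202) and 0.61 (standard error 0.14, adjusted p = 0.0315). None of the 6 was called without TA animals 1 and 4 and NIC animal 13, where Actg1 changed by 0.67 (adjusted p = 0.0639) and Vcl by 0.56 (adjusted p = 0.162).

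Keratins 8 and 18, the intermediate filament pair of simple epithelia and of hepatocytes, were among the most abundant genes to rise. Krt18 was 301 to 2724 ppm at 1 h (median 523) and 548 to 3373 ppm at 3 h (median 868). The 1 h value of NIC animal 13 lay above the 3 h value of all other animals, but within animals Krt18 rose 10 of 10 times, by a log2 change of 0.71 (standard error 0.09, adjusted p = 0.00123). Krt8 moved with it, from a median of 498 to 871 ppm (0.72, standard error 0.12, adjusted p = 0.00568, higher in 9 of 10 animals). Both were still called without the 3 animals, at 0.78 and 0.74. The beta-tubulin Tubb6 was the third of 11 tested tubulins and intermediate filaments called higher, at 0.51 (standard error 0.13, adjusted p = 0.0426). Of all genes tested, 1.47% were higher. None of the 11 was lower (limma, with 1 negative at an unadjusted p under 0.05). Among 13 tested YAP and MRTF targets, genes that respond to cell spreading and actin tension, 2 were higher, against 1.47% of all genes tested. The other 11 were not called, and the list's median was −0.04. Gadd45a, a stress and DNA damage gene, rose from a median of 284 to 528 ppm in 10 of 10 animals (0.69, standard error 0.10, adjusted p = 0.00277), and Cyr61, a secreted matrix-associated protein, from 48.2 to 79.0 ppm (0.66, standard error 0.12, adjusted p = 0.00878).

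Promoter windows of Actg1 and Vcl are shown because each holds a CArG box, the site of serum response factor, which binds actin and adhesion genes with its MRTF cofactors. In windows from 250 bases before to 50 bases after the RefSeq start, this motif was in 5 of the 108 genes called higher that had a promoter entry (4.63%; Anxa5, Mknk2, Actg1, Vcl and Npm3), in 0 of 87 called lower and in 1.53% of the 7766 tested genes with an entry. A match describes letters and no binding was measured. The motif is in capitals, and each run reads 5′ to 3′ to the base before the start.
Actg1, chr11:120348496-120348695, minus strand: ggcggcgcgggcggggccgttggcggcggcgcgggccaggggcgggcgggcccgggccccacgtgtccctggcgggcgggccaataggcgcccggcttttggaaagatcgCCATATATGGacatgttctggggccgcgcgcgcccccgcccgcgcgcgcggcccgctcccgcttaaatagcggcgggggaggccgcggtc
Vcl, chr14:20929148-20929397, plus strand: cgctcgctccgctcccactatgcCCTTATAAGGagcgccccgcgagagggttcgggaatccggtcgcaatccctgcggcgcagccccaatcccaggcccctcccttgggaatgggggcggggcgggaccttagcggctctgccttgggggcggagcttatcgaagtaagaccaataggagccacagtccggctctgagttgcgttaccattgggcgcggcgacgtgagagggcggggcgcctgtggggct

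ATF4 is a transcription factor that answers amino acid shortage and endoplasmic reticulum stress, and of 21 tested genes of its programme 4 were higher (against 1.47% of all genes tested), none was lower (limma; 0 negative and 15 positive at an unadjusted p under 0.05) and 20 had a positive change, with a median of 0.51 against −0.02 for all genes. With the animal as a random block none of the 21 was called. Eif4ebp1, a repressor of cap-dependent translation, rose in 10 of 10 animals from a median of 57.9 to 83.2 ppm (0.61, standard error 0.13, adjusted p = 0.0199). Asns, asparagine synthetase, was low, with 2.94 and 6.55 ppm (1.04, standard error 0.23, adjusted p = 0.0266). Mthfd2, a mitochondrial folate enzyme, was listed at 0 at 1 h in TA animal 2 and NIC animal 12. Its medians were 1.34 and 3.81 ppm (1.16, standard error 0.26, adjusted p = 0.0266). Ddit3, which encodes the factor CHOP, rose from 28.2 to 60.9 ppm in 9 of 10 animals (0.73, standard error 0.18, adjusted p = 0.038). Without the 3 animals Ddit3 alone was called, 16 of 17 tested members had a positive change and the median was 0.42. None of 22 endoplasmic reticulum chaperones was called (limma; 0 positive and 4 negative at an unadjusted p under 0.05), and Hspa5, the chaperone BiP, had 1512 and 1535 ppm and a change of 0.02 (standard error 0.04).

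Targets of Nrf2, the sensor of oxidative and electrophile stress, moved in part. Of 27 tested, 3 were higher, against 1.47% of all genes tested. None was lower (limma, with 1 negative and 10 positive at an unadjusted p under 0.05), and the list's median was 0.06. Srxn1, sulfiredoxin, which repairs oxidized peroxiredoxins, had the widest range, 25.4 to 491 ppm at 1 h (median 43.4) and 44.9 to 742 ppm at 3 h (median 159). It was higher at 3 h in 10 of 10 animals, although by less than 1 ppm in NIC animal 15 (44.6 and 44.9 ppm), with a log2 change of 1.17 (standard error 0.19, adjusted p = 0.00568) that became 1.25 with an adjusted p of 0.0528 without the 3 animals. Hmox1, heme oxygenase, went from a median of 141 to 326 ppm in 9 of 10 animals (0.83, standard error 0.16, adjusted p = 0.0146), and Sqstm1, the autophagy receptor p62, from 289 to 444 ppm in all 10 (0.46, standard error 0.07, adjusted p = 0.00562). The Srxn1 and Mt2 promoters are shown, 5′ to 3′ to the base before the RefSeq start, because they hold the AP-1 motif, in capitals.
Srxn1, chr2:152105374-152105523, plus strand: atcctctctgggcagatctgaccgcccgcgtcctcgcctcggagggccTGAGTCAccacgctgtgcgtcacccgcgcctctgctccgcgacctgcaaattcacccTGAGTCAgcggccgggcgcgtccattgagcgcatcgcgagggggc
Mt2, chr8:94172468-94172617, plus strand: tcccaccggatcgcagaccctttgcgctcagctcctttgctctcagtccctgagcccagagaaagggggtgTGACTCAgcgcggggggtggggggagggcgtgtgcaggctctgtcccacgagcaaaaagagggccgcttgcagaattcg

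The AP-1 motif, searched on both strands, was in 11 of the 108 higher genes with an entry (10.2%), in 8 of the 87 lower genes (9.20%) and in 6.40% of all 7766. The cyclic AMP response element was in 4.63% of the higher, 2.3% of the lower and 3.81% of all promoters, the E-box CACGTG in 14.8%, 11.5% and 12.2%, and the NF-kB motif in 3.70%, 3.45% and 1.94%. The heat shock element, the glucocorticoid response element and the sterol element SRE-1 were in no called promoter and in 0.605%, 0.0258% and 0.0644% of all. These windows are short, and the overlapping searches were counted separately for each motif.

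p53 targets, genes of the DNA damage response, included 2 higher (against 1.47% of all genes tested) and 1 lower (against 1.20%) among 17 tested. Their median was 0.19. Gadd45a, the stress and DNA damage gene given above, was also called higher but was not in this list. Mdm2, the ubiquitin ligase that degrades p53, rose from a median of 20.8 to 50.4 ppm in 10 of 10 animals (0.77, standard error 0.15, adjusted p = 0.0156), and Trp53inp1, a p53-induced nuclear protein, changed by 0.46 (standard error 0.11, adjusted p = 0.032). Of 23 tested cytosolic heat shock chaperones, Hspa1b alone was called, against 1.47% of all genes tested called higher. Its medians were 18.5 and 30.2 ppm (0.61, standard error 0.13, adjusted p = 0.0227). Its near-identical copy Hspa1a, with which it can share reads, changed by 0.51 (standard error 0.19, adjusted p = 0.178).

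Immediate early transcription factors did not move as a group. Of 26 tested, 3 were higher (against 1.47% of all genes tested), 1 lower (against 1.20%) and 22 not called, and the median was 0.02. Fos was 138 to 637 ppm at 1 h (median 233) and 65.0 to 454 ppm at 3 h (median 202), a log2 change of −0.45 (standard error 0.16, adjusted p = 0.171), Jun was 209 and 198 ppm by the medians (−0.14, standard error 0.10, adjusted p = 0.529), and Egr1 was 81.5 and 67.2 ppm (−0.30, standard error 0.22, adjusted p = 0.532). These 3 were not called, and the members that rose were others. Myc, a driver of growth and ribosome production, rose from 27.5 ppm (9.90 to 45.2) to 41.6 ppm (29.0 to 82.3) in 9 of 10 animals (0.74, standard error 0.14, adjusted p = 0.0146). Maff, a small Maf protein that pairs with Nrf2, changed by 0.60 (standard error 0.14, adjusted p = 0.0289) and Klf6, a zinc finger factor of injured liver, by 0.56 (standard error 0.13, adjusted p = 0.0368). Btg2, an antiproliferative immediate early gene that is also a p53 target, fell from a median of 215 to 205 ppm (−0.32, standard error 0.07, adjusted p = 0.0189), in 9 of 10 animals. Without the 3 animals Klf6 alone was called in this list, at 0.78.

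Feedback genes of growth factor signalling gave few calls. Dusp10, a phosphatase of stress-activated kinases, was the only one of 17 tested ERK feedback genes called, against 1.47% of all genes tested called higher. It had 3.48 to 33.7 ppm at 1 h and 7.30 to 56.9 ppm at 3 h (0.77, standard error 0.16, adjusted p = 0.0189). In the TGF-beta and BMP list, 2 of 14 tested were higher, against 1.47% of all genes tested. They were the transcriptional repressors Tgif1 (0.77, standard error 0.18, adjusted p = 0.0333) and Skil (0.45, standard error 0.11, adjusted p = 0.038). Socs3, the feedback inhibitor of IL-6 and JAK-STAT signalling, fell from a median of 114 ppm (62.2 to 291) to 82.5 ppm (39.0 to 203) in 10 of 10 animals (−0.53, standard error 0.11, adjusted p = 0.0168).

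Of 28 tested acute phase proteins, the plasma proteins that the liver makes in inflammation, 4 were higher, against 1.47% of all genes tested. None was lower (limma, with 1 negative and 8 positive at an unadjusted p under 0.05) and 24 were not called, with a median of 0.04. Saa3, a serum amyloid A, rose from a median of 137 ppm (36.0 to 452) to 289 ppm (123 to 537), by 0.95 (standard error 0.16, adjusted p = 0.0066). Lcn2, a siderophore-binding lipocalin, was 42.2 to 1106 ppm at 1 h and 92.1 to 1261 ppm at 3 h and rose in 10 of 10 animals (0.65, standard error 0.10, adjusted p = 0.00357). Serpina3m and the interleukin-1 receptor antagonist Il1rn changed by 0.32 (standard error 0.06, adjusted p = 0.0143) and 0.71 (standard error 0.17, adjusted p = 0.0362). Of these, Saa3, Lcn2 and Il1rn were still called without the 3 animals.

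In the list of NF-kB feedback genes and chemokines, 4 of 32 tested were lower (against 1.20% of all genes tested), none was higher (limma; 5 positive and 7 negative at an unadjusted p under 0.05), and the median was −0.05. Il6, the cytokine that drives acute phase synthesis, was 1.52 to 11.3 ppm at 1 h (median 3.86) and at most 3.78 ppm at 3 h (median 1.57). At 3 h it was listed at 0 in TA animals 1 and 5 and NIC animal 13. Its log2 change was −1.27 (standard error 0.26, adjusted p = 0.0168). Ccl4, a chemokine of macrophages, went from a median of 35.6 ppm (6.70 to 53.4) to 12.2 ppm (1.77 to 18.9), by −1.26 (standard error 0.28, adjusted p = 0.0248). Each fell in 9 of 10 animals, whereas the neutrophil chemokine Cxcl1, at medians of 661 and 489 ppm, fell in 8 (−0.41, standard error 0.09, adjusted p = 0.0264). The adhesion molecule Vcam1 changed by −0.56 (standard error 0.14, adjusted p = 0.0482), and Nfkbia, the NF-kB inhibitor, by −0.16 (standard error 0.10, adjusted p = 0.463). The summed level of 14 Kupffer cell and macrophage markers fell as well, in 9 of 10 animals by 0.34 ± 0.28 (SD, n = 10) on the log2 scale, and its part in these falls was not tested. Ccl4 was the only one of the 4 still called without the 3 animals, and with median-of-ratios scaling 2 of the list were lower.

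Of 27 tested interferon-stimulated genes, 2 were higher, against 1.47% of all genes tested. They were Mx2, a dynamin-like antiviral GTPase, and Rsad2, the antiviral enzyme viperin. Mx2 went from a median of 29.5 to 49.5 ppm (0.86, standard error 0.17, adjusted p = 0.0156) and Rsad2 from 30.8 to 46.9 ppm (0.49, standard error 0.10, adjusted p = 0.0213). The other 25 were not called, the list's median was 0.06, and both genes were still called without the 3 animals.

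Of 14 tested snoRNA host and nuclear long noncoding RNAs, 2 were higher (against 1.47% of all genes tested) and 12 not called. The list's median was 0.11. Neat1, the scaffold of paraspeckles, had 24.0 to 128 ppm at 1 h (median 45.6) and 51.9 to 161 ppm at 3 h (median 85.1), rose in 10 of 10 animals (0.95, standard error 0.14, adjusted p = 0.00357), and was still called with the animal as a random block. Malat1, a nuclear speckle RNA, rose from a median of 1755 ppm (1239 to 2309) to 2475 ppm (1612 to 3644) in all 10 (0.52, standard error 0.09, adjusted p = 0.00609). Lincpint, a long noncoding RNA under p53 control, rose in all 10 animals, with medians of 6.90 and 15.3 ppm (1.05, standard error 0.15, adjusted p = 0.00309). Ribosome biogenesis genes, which act in the nucleolus and several of which Myc controls, had a positive change in 54 of 56 cases, with a median of 0.21, but 54 of the 56 were not called. The 2 called higher (against 1.47% of all genes tested) were the nucleolar GTPase Gnl3 (0.66, standard error 0.14, adjusted p = 0.0202) and the histone chaperone Npm3 (0.49, standard error 0.12, adjusted p = 0.046). In this list 16 had a positive change at an unadjusted p under 0.05. Without the 3 animals 42 of 56 were positive, and none was called there or with the random block (limma). No cytosolic ribosomal protein gene of 78 was called (limma; 7 positive and 0 negative at an unadjusted p under 0.05), and the median there was 0.05.

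Bile acid synthesis, the conversion of cholesterol in hepatocytes, had the highest share of members called lower among the 44 lists. Of 20 tested genes, 6 were lower (against 1.20% of all genes tested), none was higher (limma; 1 positive and 13 negative at an unadjusted p under 0.05), 17 had a negative change and the median was −0.17. Cyp7a1, the rate-limiting enzyme of the classical pathway, differed widely among animals, 15.8 to 301 ppm at 1 h (median 101) and 8.54 to 209 ppm at 3 h (median 57.0). NIC animals 11 and 12 had the highest and TA animal 5 the lowest values at both times, and Cyp7a1 was lower at 3 h in each animal, although NIC animal 11 had 173.84 and 173.80 ppm. Its log2 change was −0.64 (standard error 0.09, adjusted p = 0.00257). Cyp8b1, the sterol 12-alpha-hydroxylase that sets the share of cholic acid, fell from a median of 138 ppm (78.7 to 295) to 93.6 ppm (55.0 to 185) in all 10 (−0.60, standard error 0.08, adjusted p = 0.00171). The later, peroxisomal steps fell too, by less but with little spread: Hsd17b4, which shortens the side chain, had 191 to 241 ppm at 1 h and 134 to 198 ppm at 3 h (−0.40, standard error 0.05, adjusted p = 0.00221), and Baat, which joins bile acids to taurine and glycine, 318 to 402 and 234 to 322 ppm (−0.33, standard error 0.05, adjusted p = 0.00357). Akr1c6 and the bile acyl-CoA synthetase relative Slc27a2 were the others called, at −0.23 (standard error 0.04, adjusted p = 0.00837) and −0.19 (standard error 0.04, adjusted p = 0.0156). Without the 3 animals Cyp7a1 (−0.60), Cyp8b1 (−0.63) and Hsd17b4 (−0.41) were still called, and with the animal as a random block Hsd17b4 and Baat were.

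Amino acid catabolism and the urea cycle had 6 of 60 tested genes lower (against 1.20% of all genes tested), none higher (limma; 0 positive and 21 negative at an unadjusted p under 0.05) and 50 with a negative change, at a median of −0.09. Apart from Tdo2 these were Cps1, the entry enzyme of the urea cycle (2731 and 2509.8 ppm by the medians, −0.16, standard error 0.04, adjusted p = 0.03), Arg1, arginase (−0.14, standard error 0.03, adjusted p = 0.0385), Hal, which breaks down histidine (−0.29, standard error 0.07, adjusted p = 0.0359), Gstz1, of tyrosine breakdown (−0.17, standard error 0.04, adjusted p = 0.0413), and Oat, ornithine aminotransferase (−0.26, standard error 0.07, adjusted p = 0.0438). The falls are small beside the ranges within either time, and they became fewer with another scaling: with median of ratios 1 of 60 was lower, and without the 3 animals or with the random block none was called (limma).

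Of 47 tested conjugating enzymes of drug metabolism, 36 had a negative change, with a median of −0.10. None was higher (limma, with 2 positive and 13 negative at an unadjusted p under 0.05). Called lower were 4 of the 47, against 1.20% of all genes tested. Besides Gstz1, which is in both lists, these were the glucuronosyltransferases Ugt2b35 (−0.30, standard error 0.06, adjusted p = 0.0137), Ugt2b36 (−0.20, standard error 0.04, adjusted p = 0.0196) and Ugt2b5 (−0.18, standard error 0.04, adjusted p = 0.0319), paralogs that can share reads. With median-of-ratios scaling 1 of the 47 was lower. Cytochromes P450 of families 1 to 3 included 1 call in 35, against 1.47% of all genes tested called higher. This was Cyp2b10, the target of the receptor CAR, which rose in 10 of 10 animals. It went from a median of 2.16 ppm (1.12 to 9.23) to 6.76 ppm (2.45 to 12.5), by 1.06 (standard error 0.18, adjusted p = 0.00609). Of the other 34, none was called lower (limma; 7 negative at an unadjusted p under 0.05).

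Among 30 hepatocyte transporters 3 were lower, against 1.20% of all genes tested. None was higher (limma, with 3 positive and 11 negative at an unadjusted p under 0.05) and the median was −0.13. Slc38a4, a neutral amino acid transporter, was 338 to 695 ppm at 1 h (median 509.8) and 296 to 548 ppm at 3 h (median 439) and fell in all 10 animals (−0.28, standard error 0.04, adjusted p = 0.00357). Slco1b2, an organic anion uptake carrier, changed by −0.19 (standard error 0.04, adjusted p = 0.0173) and Slc7a2, a cationic amino acid carrier, by −0.30 (standard error 0.06, adjusted p = 0.0199). The phosphate carrier Slc20a1 rose, by 0.49 (standard error 0.12, adjusted p = 0.0433). Of 60 secreted hepatocyte proteins, 3 were lower, against 1.20% of all genes tested. They were Apob, the backbone of very low density lipoprotein (2387 and 2065 ppm, −0.21, standard error 0.04, adjusted p = 0.00692), the mannose-binding lectin Mbl1 (−0.24, standard error 0.05, adjusted p = 0.0163) and Apoa5 (−0.26, standard error 0.06, adjusted p = 0.0235).

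Several regulators of liver metabolism were among the smallest p-values on the lower side. Klf15, a fasting-induced zinc finger factor of amino acid breakdown, was 17.8 to 91.1 ppm at 1 h (median 55.2) and 12.2 to 55.2 ppm at 3 h (median 32.3). It fell in 10 of 10 animals, by −0.63 (standard error 0.08, adjusted p = 7.2e-04). It was the 1 hepatocyte identity factor of 24 called lower, against 1.20% of all genes tested. The zinc finger factor Sall1 was the 1 called higher, against 1.47% (0.90, standard error 0.20, adjusted p = 0.0266). Ppp1r3b, the subunit that targets a phosphatase to glycogen, fell from a median of 96.1 to 53.3 ppm in all 10 (−0.66, standard error 0.10, adjusted p = 0.00279). Insig1, which holds the sterol sensor SCAP in the endoplasmic reticulum, fell (−0.24, standard error 0.05, adjusted p = 0.0174), and of the 25 tested SREBP2 targets, to which it belongs, 23 were not called. Nrip1, a nuclear receptor corepressor, rose from between 8.97 and 30.5 ppm to between 15.6 and 51.7 ppm in 10 of 10 animals (0.97, standard error 0.13, adjusted p = 0.00221), and Nfil3, a repressor tied to the clock, from 67.3 to 116 ppm (0.43, standard error 0.08, adjusted p = 0.00837). Arntl, the core clock activator, was not called, at 0.09 (standard error 0.19, adjusted p = 0.869).

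Plin2, a lipid droplet coat protein, was higher (0.33, standard error 0.08, adjusted p = 0.0498), as were Ndrg1, a hypoxia-induced gene (0.68, standard error 0.17, adjusted p = 0.0433), and Sat1, which breaks down polyamines (0.55, standard error 0.11, adjusted p = 0.0179). Of low-abundance genes called higher, Prrg4, Erdr1 and Dot1l, the last a histone H3 lysine methyltransferase, rose in 10 of 10 animals by 1.24, 1.16 and 1.08 (standard errors 0.19, 0.24 and 0.22). Oser1, an oxidative stress responsive gene, rose from a median of 24.9 to 41.2 ppm in all 10 (0.76, standard error 0.11, adjusted p = 0.00237) and was still called with the animal as a random block.

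The exact two-sided sign-flip test over the 10 animals gave p = 0.00195, the smallest that 10 animals can give, for every gene named here with the same sign in all 10. Any 10 changes of the same sign give this value whatever their size, so it adds nothing to the count of animals. Imp3, a component of the small ribosomal subunit processome and a gene without overlap between the times, fell by 0.58 (standard error 0.11, adjusted p = 0.0134), from medians of 25.5 to 17.0 ppm. Other genes lower in all 10 animals were the carboxylesterase Ces1f (−0.32, standard error 0.05), the selenophosphate synthetase Sephs2 (−0.28, standard error 0.05), the lectin-like gene Clec2d (−0.46, standard error 0.08), Nrep (−0.71, standard error 0.11), the hemojuvelin gene Hfe2, which sets hepcidin output (−0.71, standard error 0.12), and the peroxisomal membrane gene Pxmp4 (−0.66, standard error 0.14). Tnfaip8l1, Atg10, Golph3l and Ndc1 also fell in all 10, at medians under 8 ppm at 1 h, by −0.86, −0.73, −0.72 and −0.61.

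Markers of the other liver cells moved in more than 1 direction. Fewer cells of a type and less RNA per cell cannot be told apart in these bulk libraries. Of 14 Kupffer cell and macrophage markers, 11 had a negative change, with a median of −0.33. The summed level was 97.9 to 295 ppm at 1 h and 57.4 to 239.7 ppm at 3 h. The complement receptor Vsig4 (12.4 and 8.06 ppm, −0.68, standard error 0.13, adjusted p = 0.0121) and the macrophage protein Cd5l (−0.57, standard error 0.12, adjusted p = 0.0179) fell, and so did the mannose receptor Mrc1 (−0.61, standard error 0.11, adjusted p = 0.00783), which is shared with endothelium and was in none of the marker lists. The lysosomal Cd68 rose (0.76, standard error 0.15, adjusted p = 0.0156). Of 15 sinusoidal endothelial markers 12 were negative, Clec4g was called (−0.72, standard error 0.13, adjusted p = 0.00883), and the sum, 116 to 291 ppm at 1 h and 102 to 203 ppm at 3 h, fell in 9 of 10 animals by 0.23 ± 0.26 (SD, n = 10).

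The biliary epithelial list rose through 2 genes. Its sum was 10.8 to 101 ppm at 1 h and 20.9 to 178 ppm at 3 h, higher in 10 of 10 animals by 1.07 ± 0.66 (SD, n = 10), and came from Sox9, a progenitor factor (6.56 and 20.4 ppm by the medians, 1.01, standard error 0.18, adjusted p = 0.00736), and Spp1, osteopontin (12.8 and 24.4 ppm, 1.24, standard error 0.24, adjusted p = 0.0146). The defining duct markers were near or at 0: Krt7 was listed at 0 in 16 of 20 libraries, Krt19 in 15, Cftr in 16, Cldn7 in 19 and Epcam in 7. The hepatocyte sum changed by 0.04 ± 0.07 (SD, n = 10). Of 7 tested stellate and fibroblast markers none was called (limma; 0 at an unadjusted p under 0.05), and Hba-a1, Hba-a2, Hbb-bs and Hbb-bt were listed at 0 in all 20 libraries.

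**Figure D3:**
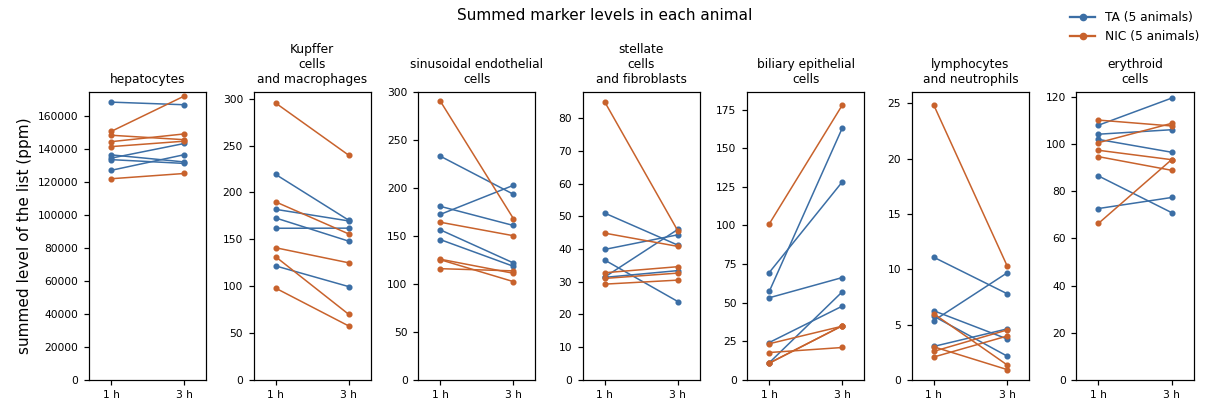
Summed level of each marker list (y axis, ppm, from 0) in the 1 h and 3 h library of each animal (x axis; each line is 1 animal, blue for TA and orange for NIC, 5 animals each). The biliary list rose in 10 of 10 animals, the Kupffer and sinusoidal endothelial lists fell in 9 of 10, and the hepatocyte list lay between 122020.0 and 172237 ppm over both times.

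Of the 44 lists, 33 had a called member, 10 had tested members of which none was called, and the list of mitochondrially encoded genes had no tested member. Besides those already named, no call was made among 74 nuclear oxidative phosphorylation genes (60 negative, median −0.05), 36 proteasome subunits, 25 fatty acid and triglyceride synthesis genes (20 negative, median −0.09), 25 epithelial junction genes, 19 integrin and matrix genes, 17 growth factor receptors, 17 G1 and 6 S and M phase cell cycle genes. In limma at an unadjusted p under 0.05, these lists gave 0, 3, 1, 4, 4, 0, 1 and 1 positive and 4, 2, 3, 1, 0, 4, 0 and 2 negative changes.

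The called genes were chosen on both father groups pooled, which favours a common direction in the offspring of TA and NIC fathers, and a common sign is no separate result. Changes were nominally larger in TA animals, with a median of 0.84 against 0.49 for the genes called higher and −0.37 against −0.32 for those called lower. Tested alone, TA animals had 211 genes higher (2.09%) and 66 lower (0.655%), and NIC animals had 0 higher (limma) and 1 lower (0.00992%), with 728 genes at an unadjusted p under 0.05 against 1795 in TA. The difference itself was not called for any gene by limma's interaction of father and time, which gave 644 genes at an unadjusted p under 0.05 and a smallest adjusted p of 0.358. Srxn1 changed by 1.62 in TA and 0.72 in NIC animals, Gnl3 by 1.03 and 0.28, and Slpi by 1.35 and 1.42. The TA counts rested in part on single animals: without TA animal 1 they were 43 and 9, without TA animal 3 70 and 13, 101 were higher without TA animal 2, and 27, 38 and 37 were lower without TA animal 4, NIC animal 14 and NIC animal 15. In NIC animals no gene was called lower without animal 11, 12, 14 or 15 (limma, with 386, 398, 325 and 331 negative at an unadjusted p under 0.05).

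**Figure D4:**
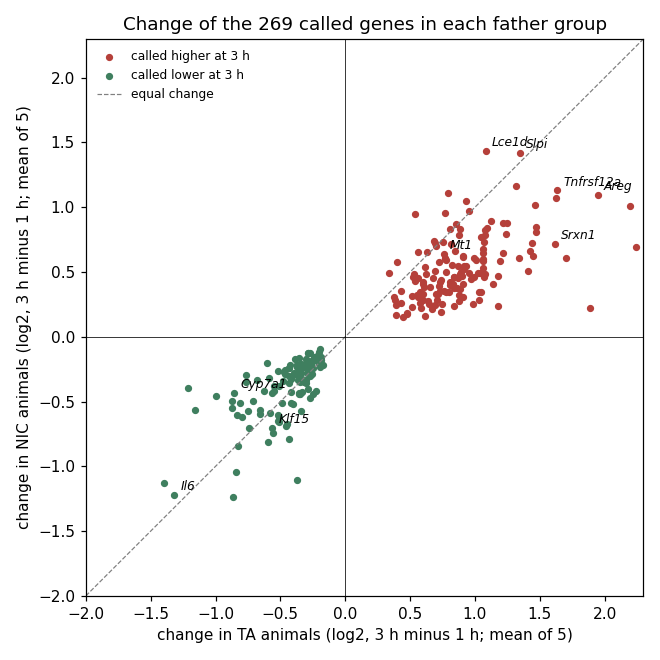
Log2 change from 1 to 3 h of the 269 called genes in TA animals (x axis, mean of 5) and NIC animals (y axis, mean of 5), each point 1 gene, with the line of equal change dashed. All points lie in the lower left or upper right quadrant, as the choice of genes on the pooled animals favours, and 133 of the 148 higher genes lie below the line, on the side of the larger change in TA, a difference for which no gene was called.

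The library titles carry 2 dates for these animals, A with 3 TA and 3 NIC and B with 2 TA and 2 NIC animals, without saying what was done on them. Fitted alone, date A gave 88 higher and 23 lower and date B, with 4 animals, 2 higher and 2 lower.

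The 0 h libraries of the same 10 animals show where the 3 h level lay against the start. Against 0 h, 409 of 10154 genes were higher at 3 h (4.03%) and 1161 lower (11.4%), and because the 3 h libraries are shared with the comparison above, values are set side by side only. The counts were 631 and 735 with median-of-ratios scaling and 626 and 691 with quantile normalization, and without TA animal 3 the lower genes numbered 698. Some genes climbed over both steps. Sprr1a had medians of 9.30, 25.5 and 67.5 ppm at 0, 1 and 3 h and Klf6 39.3, 68.2 and 126 ppm. Others had a lower median at 1 h than at 0 h, among them Mt1 (2055, 1949 and 3344 ppm, although its log2 change within animals from 0 to 1 h was 0.19), Krt8 (600.0, 498 and 871 ppm, with 0.06 within animals) and Neat1 (71.9, 45.6 and 85.1 ppm), the last of which was not called at 3 h against 0 h (log2 change 0.28, adjusted p = 0.2). On the lower side Cyp8b1 (176, 138 and 93.6 ppm), Clec2d (148, 96.4 and 68.3 ppm) and Ppp1r3b (111, 96.1 and 53.3 ppm) were lower at each later time. Cyp7a1 had medians of 83.6, 101 and 57.0 ppm, although its log2 change within animals from 0 to 1 h was −0.002.

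**Figure D5:**
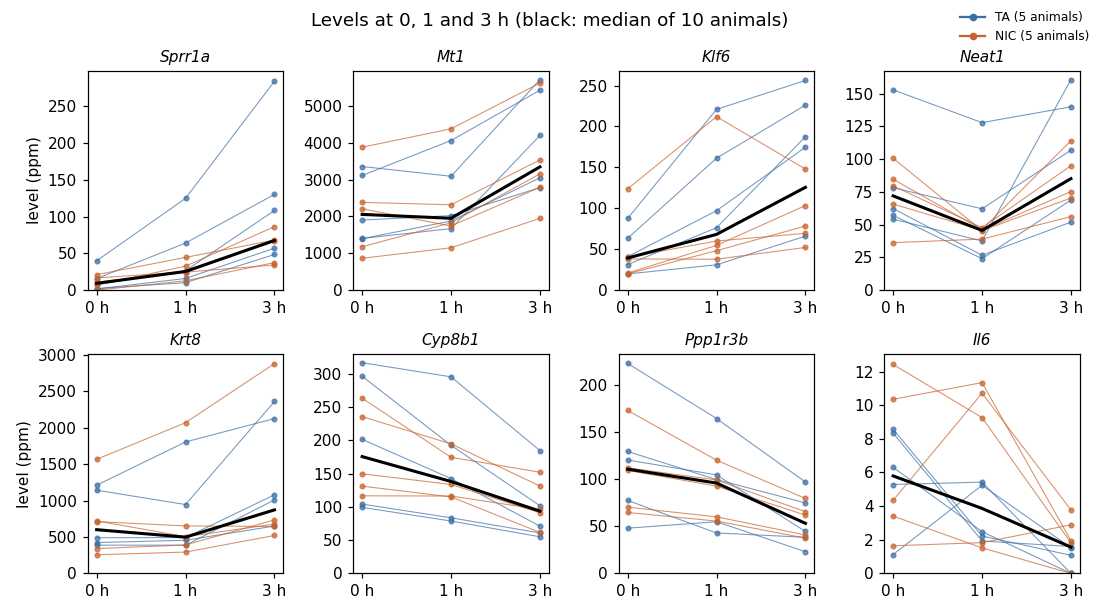
Level of 8 genes (y axis, ppm, from 0) at 0, 1 and 3 h (x axis) in each animal (thin lines, blue for TA and orange for NIC, 5 animals each) with the median of 10 animals in black. Sprr1a and Klf6 climb over both steps, Neat1 dips to a median of 45.6 ppm at 1 h before reaching 85.1 ppm, and Cyp8b1 and Ppp1r3b go down at each step.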

How the data were processed

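The 20 libraries analysed are the 1 h and 3 h cultures of 10 time course animals. Animals were paired from the library titles, in which the libraries of an animal carry consecutive numbers of a date. Per the paper's methods, RNA was depleted of rRNA, strand-specific libraries were sequenced on a NextSeq 500, the authors used Bowtie2 to map reads onto mm10, and their own test was DESeq2 with Holm-Bonferroni correction, which was not used here. The counting tool and annotation are not given in the sources used here. The table deposited by the authors holds 23126 genes and 60 libraries, described as ppm of mapped reads, and the values of these libraries behave as TPM, since the size of their smallest step varies with the gene. TPM keep no read totals, so only relative depth within a date could be estimated. The symbols of 27 genes had been turned into dates, and 2 symbols occur more than once.

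Genes with a mean above 1 ppm over the 20 libraries were tested in R 4.3.3 with limma 3.58.1 (random blocks with statmod 1.5.0). The response was log2(ppm + 1), the animal was a fixed block, and the prior variance followed an intensity trend. The pseudocount of 1 ppm understates changes of low genes. Adjustment over all genes followed Benjamini and Hochberg, and 16 genes passed Holm's adjustment. The deviations of an animal's 1 h and 3 h libraries from their group means correlated at 0.174 to 0.677, and in 9 of 10 animals best with its own. The change within each father group and the interaction of father and time came from the same 20 libraries, and 3 h against 0 h from 30. Differences of single genes were also tested by exact two-sided sign flips over the 10 animals. On simulated libraries for the same 10082 genes, the main comparison called 35% of the log2 changes of 0.5 and 86% of the log2 changes of 1. It called 8 of 9882 unchanged genes, and 0 genes where nothing had been changed. The simulated noise was normal and independent between genes and libraries, with a single spread for each gene. These rates need not hold where genes move together or animals differ in spread. p-values cover the spread between animals, each cultured and sequenced singly at each time.

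Named genes were the 12 of smallest p and the 12 of largest change in each direction among called genes with the same sign in all 10 animals, up to 4 called members per direction of each list, and 11 genes that define lists. Imp3, the marker genes, and called list members beyond the fourth were named after their values were seen. Members and lists were chosen with earlier results of these data known. Gene coordinates are those of GENCODE M21 (GRCm38), and promoter sequences those of RefSeq (GRCm38.p6). The 21 h and 2 h libraries of the series were not analysed here. Alternatives changed the pseudocount, filter, scaling, block, weights, dates and animals. The fit without TA animals 1 and 4 and NIC animal 13 was chosen after seeing the data. Some genes are not reported here.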

Additional observations from a re-analysis of the deposited data

Results flagged for a closer look

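For each of the 113 named genes, the change from 1 to 3 h was compared across the 10 animals, and 9 genes (7.96%) had an animal whose gap to the nearest other animal, over the whole range, passed Dixon's 95% critical value, which chance passes in about 1 of 20. TA animal 2 was that animal for 4 genes that rose: Lincpint, with a log2 change of 2.21 against 0.34 to 1.32 in the other 9, Sox9 (2.56 against 0.40 to 1.26), Skil (1.19 against −0.10 to 0.55) and Cyr61 (1.67 against 0.08 to 0.80). In the same animal Vcl rose by 1.495 against 0.04 to 0.76 in the other 9. Ddit3 had a change of −0.94 in NIC animal 13 and 0.38 to 1.49 in the other 9. Ndc1 stood at −1.48 in NIC animal 15 against −0.78 to −0.09. Slc7a2 had −0.77 in TA animal 1 against −0.41 to −0.03, and Tdo2 had 0.11 in NIC animal 11 against −0.35 to −0.16. All 9 genes were called over the 10 animals.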

How the results depend on the processing

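Over the 24 alternatives, none of the 103 called genes named here changed sign. The 4 named genes that did were not called: Arntl (−0.272 on date B and −0.0608 to 0.179 when 1 animal was left out), Hspa5 (−0.0423 on date B and −0.000568 to 0.0495 when 1 animal was left out), and Egr1 (0.0108) and Nfkbia (0.0155) without TA animals 1 and 4 and NIC animal 13. The number of calls varied more. For all animals, the main counts of 148 higher and 121 lower became 65 and 63 with no filter on low values, 88 and 23 on date A and 2 and 2 on date B, and 26 and 15 without the 3 animals, with fewer animals in the last 3. Leaving out 1 animal gave 77 to 176 higher and 62 to 113 lower. The other pseudocounts, scalings, array weights and the 30-library fit gave 118 to 188 higher and 94 to 171 lower.

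With no replicate block 0 genes were higher and 1 lower (limma, 328 and 396 at an unadjusted p under 0.05), and with the animal as a random replicate block 6 and 4, among them Nrip1, Oser1, Lincpint, Neat1, Hsd17b4 and Baat. In TA animals no replicate block gave 0 and 0 and the random replicate block 13 and 4, in NIC animals no replicate block gave 0 lower, and for 3 h against 0 h no replicate block gave 70 higher and 271 lower.

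For TA animals, where 211 were higher and 66 lower, no filter gave 102 and 27, array weights 116 and 30, date A 98 and 6, date B 0 and 0 (508 and 527 at an unadjusted p under 0.05 in limma), and without the 3 animals 34 and 4, with 43 to 243 and 9 to 79 when 1 animal was left out. For NIC animals, where 0 were higher and 1 lower, a pseudocount of 5 gave 3 and 2, a mean above 10 ppm 4 and 4, median of ratios 3 and 2, rescaling without the 20 most abundant genes 4 and 3, array weights 5 and 5, dates A and B 0 lower each, and without the 3 animals 1 and 0, with 0 to 1 and 0 to 2 when 1 animal was left out. The interaction of father and time gave 0 calls under each alternative (leave-one-out 0 to 0). For 3 h against 0 h, where 409 were higher and 1161 lower, median of ratios gave 631 and 735, quantile normalization 626 and 691, array weights 272 higher, date A 261 and 343, date B 11 and 18, and without the 3 animals 175 higher, with 280 to 449 and 698 to 1306 when 1 animal was left out. The cause of these shifts was not tested.

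Read totals are unknown, so that no counting error can be given for low genes. In simulation with independent noise, 86% of log2 changes of 1 and 35% of log2 changes of 0.5 were called.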
